A study of Homo sapiens with 12 samples.

Results

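The genes described here encode the human proteasome: every gene of the deposited table whose symbol begins PSMA to PSMG and ends in a number, 48 of 58884 genes. They comprise 19 core genes (8 PSMA and 11 PSMB), 20 cap genes (6 PSMC and 14 PSMD) and 9 other genes (4 PSME, PSMF1 and 4 PSMG). RNA sequencing compared METTL5 knockout with wild-type cells in HCC-LM3 and Huh-7, 2 established human liver cancer lines, with 12 libraries in 4 groups of 3. METTL5 is an enzyme that methylates an adenosine of the small-subunit ribosomal RNA. The groups were HCC-LM3 cells infected with a guide RNA against METTL5, HCC-LM3 wild-type cells without treatment, Huh-7 cells infected with the METTL5 guide RNA, and Huh-7 wild-type cells without treatment. No control guide, clone, culture or batch is named in the labels, so loss of METTL5 cannot be told apart from effects of infection, of the guide or of a clone. They number the replicates without saying that these came from separate cultures, so p-values measure the spread between libraries, which may be technical.

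The proteasome degrades proteins that carry ubiquitin chains. PSMA genes encode the outer α rings of the core particle and PSMB genes the inner β rings, which hold the proteolytic sites. The regulatory cap has a base, made of a ring of PSMC ATPases with large PSMD scaffold subunits and ubiquitin receptors, and a lid of further PSMD subunits that includes a deubiquitinase. PSME proteins are alternative activators, PSMF1 is an inhibitor in biochemical assays, and PSMG proteins are chaperones that assemble the core. Under interferon, cells exchange the constitutive catalytic subunits PSMB5, PSMB6 and PSMB7 for PSMB8, PSMB9 and PSMB10. In the liver, as in other tissues, the transcription factor NFE2L1 raises proteasome genes when proteasome activity is blocked.

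The libraries held 17495280 to 26415554 expected counts, and 16537 genes passed the filter on low counts. METTL5 was at 0 counts in all 6 knockout libraries, against 268, 327.01 and 325.03 counts in wild-type HCC-LM3 and 237, 258.02 and 169.17 counts in wild-type Huh-7. Against 3 counts a library taken as the limit of a count of 0, the knockout level was lower than wild type by at least 95.6-fold in HCC-LM3 and by 29.3-fold or more in Huh-7. Of 9 hepatocyte markers, 3 reached 1 TPM (a level scaled by transcript length and library) in HCC-LM3 of either genotype, and ALB, AFP, APOA1, APOB, TTR and SERPINA1 were at or near 0 there. All 9 did so in Huh-7, where they summed to 13990 to 14270 TPM in knockout and 17980 to 19370 TPM in wild-type libraries. Within that list ALB averaged 64.3 TPM in Huh-7 knockout and 467 TPM in Huh-7 wild-type libraries, and AFP averaged 223.5 TPM in knockout and 1462 TPM in wild type. APOB averaged 1.27 TPM in Huh-7 knockout and 69.8 TPM in Huh-7 wild type, and HNF4A 13.1 TPM in knockout and 74.1 TPM in wild type, and none of these 4 overlapped. KRT18 was higher in Huh-7 knockout (2801 TPM) than in Huh-7 wild-type libraries (2540 TPM), and TTR overlapped. Of 7 markers of leukocytes, endothelium and fibroblasts, PTPRC was at or near 0 in all libraries, and the list summed to 18.9 to 20.1 TPM in Huh-7 knockout and 31.8 to 34.8 TPM in Huh-7 wild-type libraries. In HCC-LM3 the same list summed to 59.8 to 68.8 TPM in knockout and 61.5 to 64.5 TPM in wild-type libraries, most of it CD68. The part of these markers in the results was not tested. Wild-type replicate 1 of HCC-LM3 stood apart from the other wild-type libraries of that line, and calls of members that changed without it are given below.

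Proteasome transcripts took a lower share of all TPM in HCC-LM3 knockout than in HCC-LM3 wild-type libraries. The balance of core to cap transcripts differed between genotypes, with the larger gap in Huh-7. The 48 genes summed to 0.756% ± 0.009 of TPM in HCC-LM3 knockout and 0.844% ± 0.015 in HCC-LM3 wild-type libraries (SD, n = 3 each). They summed to 0.737% ± 0.012 in Huh-7 knockout and 0.778% ± 0.031 in Huh-7 wild-type libraries (SD, n = 3 each). The HCC-LM3 groups did not overlap in this TPM share, and 1 Huh-7 wild-type library lay within the Huh-7 knockout range. As a share of expected counts the Huh-7 order was the other way, without overlap. Members held 189682, 157639 and 164953 of 20523324, 17495280 and 17857354 counts in Huh-7 knockout libraries. In Huh-7 wild-type libraries they held 203572, 168151 and 137249 of 25797807, 20753494 and 18556078 counts. The HCC-LM3 order was the same with either measure. The sum does not separate fewer cells of a type from less RNA per cell, which cannot be told apart in bulk samples. Core genes summed to 5130, 5036 and 5165 TPM in Huh-7 knockout libraries, against 4797, 4947 and 4425 TPM in Huh-7 wild-type libraries. Cap genes summed to 1560, 1510 and 1599 TPM in Huh-7 knockout libraries, against 2307, 2282 and 2188 TPM in Huh-7 wild-type libraries. Neither sum overlapped between the 2 Huh-7 groups. The ratio of core to cap TPM, in which a factor common to a library cancels, was 3.29 ± 0.05 in Huh-7 knockout and 2.09 ± 0.07 in Huh-7 wild-type libraries (SD, n = 3 each). Effects of transcript length or GC content on single genes do not cancel in it. In HCC-LM3 that ratio was 1.52 ± 0.02 in knockout and 1.56 ± 0.05 in wild-type libraries (SD, n = 3 each). It ran from 1.495 to 1.528 in HCC-LM3 knockout and from 1.534 to 1.615 in HCC-LM3 wild-type libraries. These ranges lay close without overlap, in the order opposite to that of Huh-7. Both sums were lower in HCC-LM3 knockout, without overlap: the core sum was 4044 ± 66 TPM in knockout and 4613 ± 114.5 TPM in wild-type libraries, and the cap sum 2668 ± 31 TPM in knockout and 2954 ± 35 TPM in wild-type libraries (SD, n = 3 each).

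**Figure D1:**
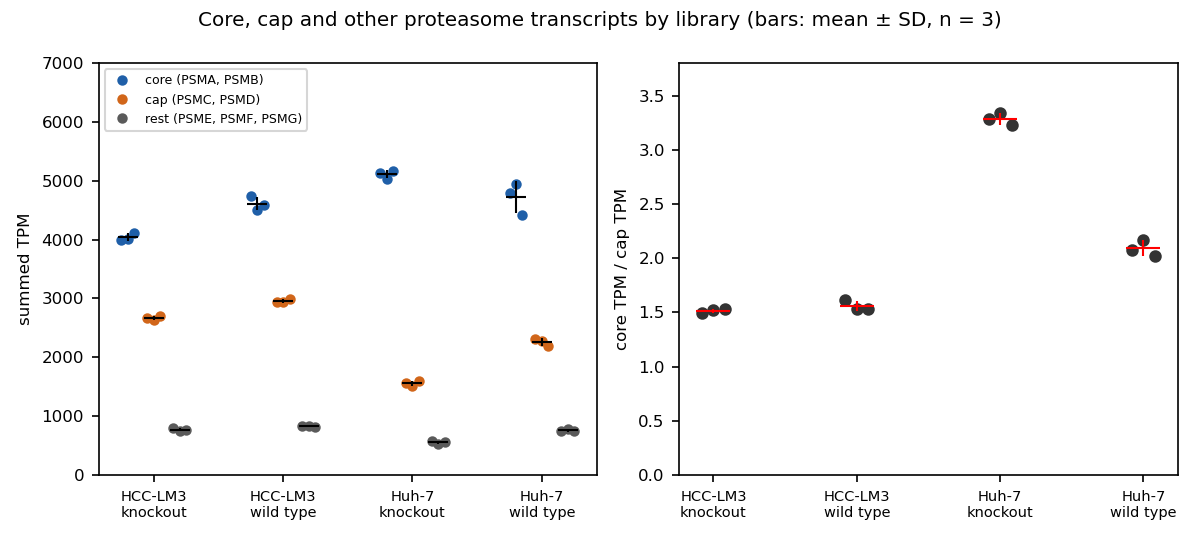
Summed TPM of core, cap and other proteasome genes (left) and the ratio of core to cap TPM (right) in each of 12 libraries, with the mean and SD of 3 libraries per group. The ratio was 3.23 to 3.34 in Huh-7 knockout and 2.02 to 2.17 in Huh-7 wild-type libraries. It was 1.495 to 1.528 in HCC-LM3 knockout and 1.534 to 1.615 in HCC-LM3 wild-type libraries.

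Subunits present in equal number in the assembled particle had more unequal transcript levels in knockout than in wild-type cells, in Huh-7 for all 4 gene sets compared and in HCC-LM3 for 3 of them. Among the 6 ATPases, the highest TPM was 242.3 ± 95.4 times the lowest in Huh-7 knockout and 20.7 ± 3.1 times in Huh-7 wild-type libraries (SD, n = 3 each). PSMC4 averaged 225 TPM and PSMC6 1.05 TPM in knockout, whereas in wild type PSMC3 was highest at 262 TPM and PSMC6 lowest at 13.4 TPM. Among 11 non-ATPase subunits of the cap the spread was 1827 ± 447 times in Huh-7 knockout and 74.3 ± 10.5 times in Huh-7 wild-type libraries. The lowest of them in knockout was PSMD12, at 0.333 TPM, and the highest PSMD8, at 586.4 TPM. PSMD12 had 48, 23 and 28 counts in the Huh-7 knockout libraries and has 37.9% GC, against 57.2% GC for PSMD8. Over all genes tested, the median log2 fold change in Huh-7, from the fit described below, was -1.88 under 40% GC and 0.61 above 55% GC. Within the core, the spread over PSMA1 to PSMA7 was 31.1 ± 1.2 times in knockout and 16.6 ± 2.3 times in wild type, and that over PSMB1 to PSMB7 was 27.8 ± 2.8 times in knockout and 10.5 ± 1.2 times in wild type. The same spreads in HCC-LM3 were 35.2 ± 5.4 times in knockout and 21.0 ± 4.2 times in wild type for the ATPases, and 27.7 ± 2.5 times in knockout and 16.3 ± 4.2 times in wild type for the 11 cap subunits. For PSMA1 to PSMA7 in HCC-LM3 they were 14.7 ± 0.59 times in knockout and 10.3 ± 1.44 times in wild type. For PSMB1 to PSMB7 in HCC-LM3 they were 8.30 ± 0.48 times in knockout and 7.81 ± 0.40 times in wild type (SD, n = 3 in each group). In all 4 gene sets the Huh-7 knockout libraries had a wider spread than any Huh-7 wild-type library, and in HCC-LM3 the same held for the PSMA, ATPase and cap sets. The PSMB values overlapped between the HCC-LM3 groups. Spreads over other gene sets were not computed, and the part of GC content and length in these spreads was not tested.

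Per gene, 28 members rose and 16 fell in Huh-7 knockout against Huh-7 wild-type cells, of 47 tested with edgeR's quasi-likelihood test on TMM-scaled counts. TMM scaling takes most genes as unchanged. A call is a Benjamini-Hochberg adjusted p under 0.05 over 16537 genes, and in this comparison 75.0% of all genes were called, 31.7% higher and 43.2% lower. The core had 13 higher and 3 lower members of 18 tested, the cap 9 higher and 11 lower of 20, and the rest 6 higher and 2 lower of 9. The median log2 fold change was 1.37 over the core, -0.75 over the cap, 0.89 over the rest and -0.30 over all genes. These signs depend on the scaling, and the TMM factors were 0.491 to 0.510 in Huh-7 knockout and 1.06 to 1.10 in Huh-7 wild-type libraries. With library totals alone the median of all genes was -1.40, the core median 0.26 and the cap median -1.86, with 13 members higher and 26 lower. On log2(TPM + 1) with limma the median of all genes was -0.68, the core median -0.40 and the cap median -1.77, with 8 higher and 36 lower. Shares of all genes called with library totals and on log2(TPM + 1) are not reported here. The deposited TPM also differ from the counts gene by gene, beyond a factor common to a library. PSMA5 had 1595 counts and 13.4 TPM in Huh-7 knockout replicate 1, against 1557 counts and 25.8 TPM in Huh-7 wild-type replicate 1. In the same libraries PSMB7 had 14815 counts and 606 TPM in knockout, against 10488 counts and 493 TPM in wild type. The gap between the core and cap medians was 2.12 with TMM, 2.12 with library totals and 1.37 on log2(TPM + 1). It was 0.65 with length offsets and 0.46 with GC and length offsets, which act gene by gene. Under all 6 scalings tried, 8 members were called higher and 6 lower, where 4.59% of all 16537 genes were called higher and 18.5% lower under all 6.

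**Figure D2:**
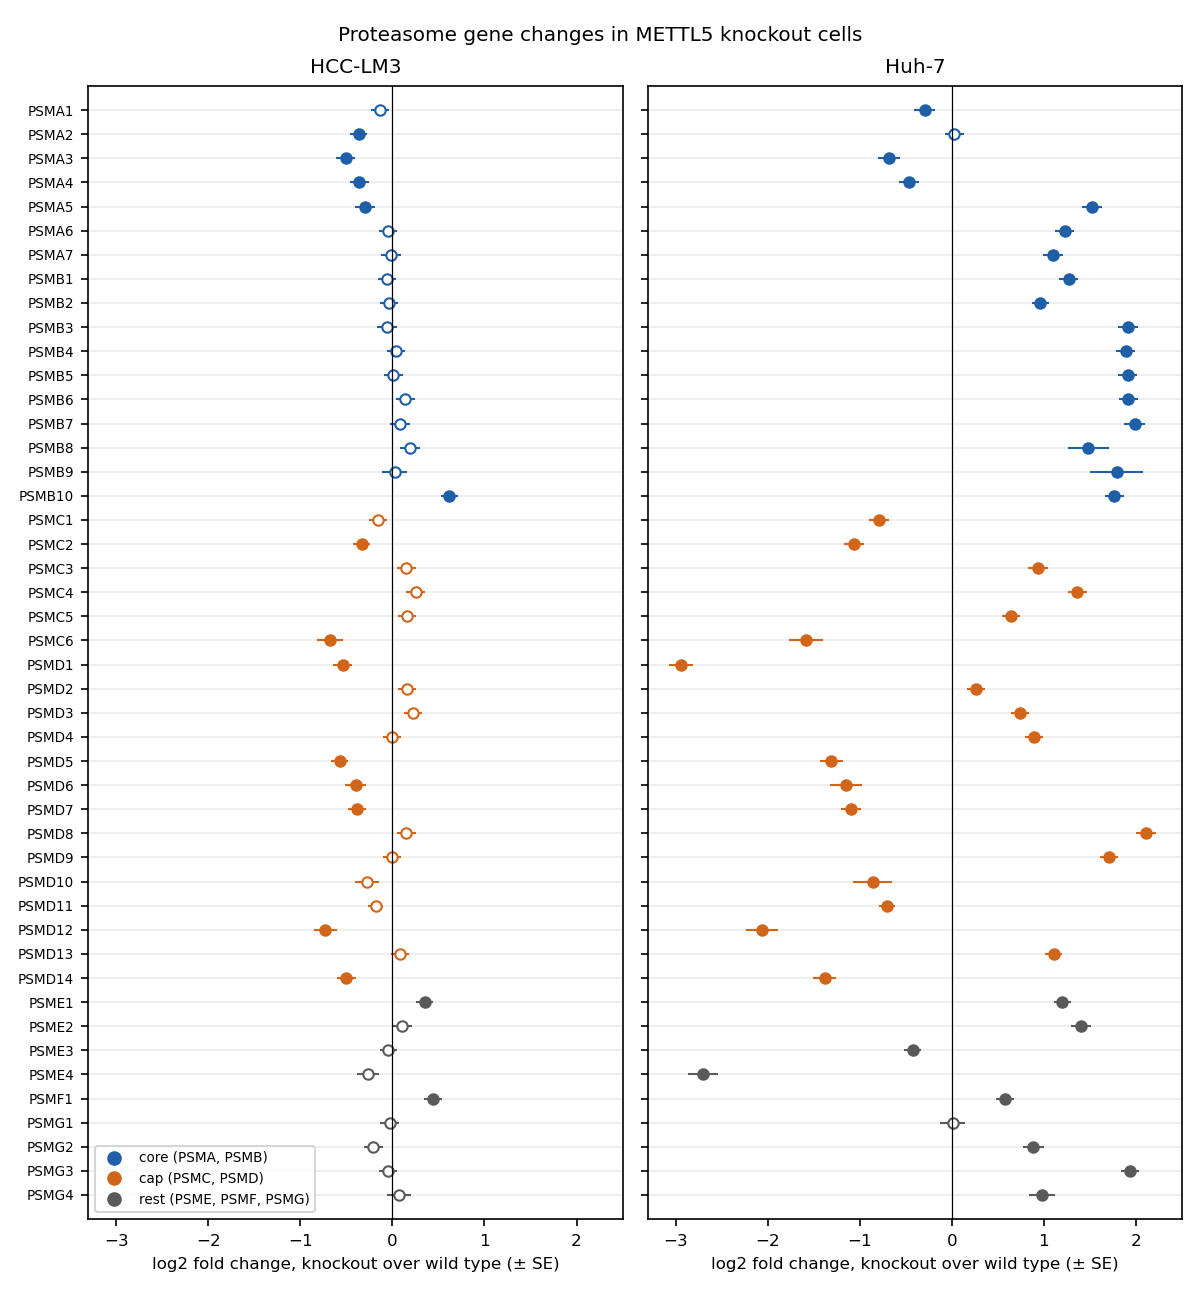
Log2 fold change (± SE) of 46 proteasome genes in METTL5 knockout over wild-type cells, in HCC-LM3 (left) and Huh-7 (right), from edgeR with TMM scaling. Filled points passed an adjusted p of 0.05, open points did not, and PSMA8 is left out. In HCC-LM3 3 genes were higher and 12 lower, and in Huh-7 28 were higher and 16 lower. With library totals alone the Huh-7 counts were 13 higher and 26 lower, and the share of all genes is not reported here.

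In the β rings, all 10 tested PSMB genes were called higher in Huh-7 knockout cells with TMM scaling, with a median log2 fold change of 1.84. PSMB3, PSMB4, PSMB5, PSMB6, PSMB7 and PSMB10 were called higher under all 6 scalings. PSMB2 turned lower with library totals (-0.15) and on log2(TPM + 1) (-1.11), and PSMB1 and PSMB8 on log2(TPM + 1) (-0.37 and -0.10). PSMB8 and PSMB9 had few counts in Huh-7, and their TPM overlapped between genotypes. PSMB8 had 43, 51 and 32 counts in Huh-7 knockout, against 38, 40 and 35 in Huh-7 wild-type libraries. PSMB9 had 21, 28 and 27 counts in Huh-7 knockout, against 22, 17 and 16 in Huh-7 wild-type libraries. PSMB7, the constitutive subunit with trypsin-like activity, had 606, 575 and 616 TPM in Huh-7 knockout libraries, against 493, 472 and 454 TPM in Huh-7 wild-type libraries. The groups did not overlap, and its log2 fold change was 1.98 ± 0.11 (SE, edgeR adjusted p = 6.67e-17) with TMM and 0.34 ± 0.06 (SE, limma adjusted p = 0.000168) on log2(TPM + 1). PSMB5, with chymotrypsin-like activity, had 995, 984 and 1017 TPM in knockout, against 875, 881 and 850 TPM in wild-type libraries, again without overlap. PSMB6, with caspase-like activity, had 748.5, 740.3 and 761 TPM in knockout, against 616, 652 and 594.5 TPM in wild-type libraries. PSMB3, a structural β subunit, had 1145, 1141 and 1155 TPM in knockout, against 925, 1014 and 884 TPM in wild-type libraries, and was the highest proteasome transcript of both Huh-7 groups. On the TMM scale the log2 fold changes of PSMB5, PSMB6 and PSMB3 were 1.91, 1.92 and 1.92, each with an SE of 0.10 or 0.11. The other structural β subunit called under every scaling, PSMB4, averaged 983 ± 5 TPM in knockout and 830 ± 50 TPM in wild-type libraries (SD, n = 3 each).

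The α rings were mixed. Of 8 PSMA genes, 3 were called higher (PSMA5, PSMA6 and PSMA7), 3 lower (PSMA1, PSMA3 and PSMA4) and 2 neither way in Huh-7 knockout cells, with a median log2 fold change of -0.13. PSMA7 was higher with TMM, at 1.10 ± 0.11 (SE, edgeR adjusted p = 5.62e-11), but was -0.02 with library totals and -0.55 on log2(TPM + 1). PSMA6 was higher with TMM, at 1.22, and lower on log2(TPM + 1), at -0.43. PSMA5 was higher with TMM, at 1.53 ± 0.11 (SE, edgeR adjusted p = 6e-14), and lower on log2(TPM + 1), at -0.74. PSMA3 had 9.30, 7.84 and 8.19 TPM in Huh-7 knockout libraries, against 34.0, 36.5 and 35.4 TPM in Huh-7 wild-type libraries. Its groups did not overlap, and its log2 fold change was -0.68 ± 0.12 (SE, edgeR adjusted p = 5.13e-06) with TMM. In a ratio of 2 α subunits a factor common to a library cancels: PSMA3 over PSMA7 was 0.0335 ± 0.0025 in knockout and 0.0966 ± 0.0149 in wild-type libraries (SD, n = 3 each, a pair chosen after the values were seen). With GC and length offsets PSMA3 was at -0.66 and PSMA7 at -0.02. PSMA8, a testis-specific α subunit, was at 7.93, 6.32 and 6.8 counts in Huh-7 knockout and 24.7, 41.65 and 18.6 counts in Huh-7 wild-type libraries, and did not pass the test (edgeR adjusted p = 0.179). PSMB11, a β subunit known from the thymus, had 0 to 2 counts in every library and was not tested.

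In the cap, some scaffold and lid transcripts fell far in Huh-7 knockout cells and the lid transcript PSMD8 rose. PSMD1, one of the large scaffold subunits of the base, had 1.71, 1.87 and 1.60 TPM in Huh-7 knockout libraries, against 20.7, 27.4 and 26.2 TPM in Huh-7 wild-type libraries. Its groups were far apart, and its log2 fold change was the lowest of all members, at -2.94 ± 0.13 (SE, edgeR adjusted p = 3.63e-19). PSMD2, the other large scaffold subunit, had 165, 153 and 158 TPM in knockout, against 399, 368 and 365 TPM in wild-type libraries. It was called higher with TMM, at 0.26 ± 0.10 (SE, edgeR adjusted p = 0.0177), but lower with library totals (-0.85) and on log2(TPM + 1) (-1.25). The ratio of PSMD1 to PSMD2, in which a factor common to a library cancels, was 0.0109 ± 0.0012 in Huh-7 knockout and 0.0659 ± 0.0123 in Huh-7 wild-type libraries (SD, n = 3 each). PSMD12, a lid subunit, had 0.40, 0.25 and 0.35 TPM in knockout, against 7.82, 8.95 and 7.37 TPM in wild-type libraries. PSMD8, also a lid subunit, had 583, 581 and 595 TPM in knockout, against 478.5, 421 and 466 TPM in wild-type libraries, and was the highest cap transcript in both groups. Neither lid gene overlapped between genotypes, and the log2 fold change was -2.06 ± 0.18 for PSMD12 (SE, edgeR adjusted p = 1.9e-12) and 2.11 ± 0.11 for PSMD8 (SE, edgeR adjusted p = 5.64e-18). The ratio of PSMD12 to PSMD8 was 0.000568 ± 0.000129 in knockout and 0.0178 ± 0.0030 in wild-type libraries (SD, n = 3 each). Both pairs were chosen after their values were seen. With GC and length offsets PSMD8 stayed higher at 1.17 and PSMD1 lower at -1.67, whereas PSMD12 was at -0.30 and no longer passed (edgeR adjusted p = 0.12).

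The promoters of these cap genes are shown because they are the extremes of the comparison. Each window runs from 250 bases before to 50 bases after the start of transcription, from RefSeq on GRCh38.p14, read 5′ to 3′ on the strand of the gene. PSMD1 is at chr2:231056617-231056916 on the plus strand, PSMD12 at chr17:67366528-67366827 on the minus strand and PSMD8 at chr19:38374321-38374620 on the plus strand. Capitals mark the antioxidant response element, searched as TGACNNNGC on both strands, in PSMD1 and PSMD12, and the CCAAT box, searched on both strands, in PSMD8.
PSMD1: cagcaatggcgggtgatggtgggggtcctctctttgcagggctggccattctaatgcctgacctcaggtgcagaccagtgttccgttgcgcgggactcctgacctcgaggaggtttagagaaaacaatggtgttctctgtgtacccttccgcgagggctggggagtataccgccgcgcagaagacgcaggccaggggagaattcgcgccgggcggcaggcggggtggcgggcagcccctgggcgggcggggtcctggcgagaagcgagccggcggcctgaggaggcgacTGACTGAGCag
PSMD12: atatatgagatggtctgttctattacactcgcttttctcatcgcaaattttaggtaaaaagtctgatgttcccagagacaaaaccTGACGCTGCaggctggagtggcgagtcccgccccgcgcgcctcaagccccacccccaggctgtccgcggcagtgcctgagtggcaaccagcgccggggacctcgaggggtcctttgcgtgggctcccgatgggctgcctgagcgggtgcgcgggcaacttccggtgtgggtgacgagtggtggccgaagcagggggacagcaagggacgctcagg
PSMD8: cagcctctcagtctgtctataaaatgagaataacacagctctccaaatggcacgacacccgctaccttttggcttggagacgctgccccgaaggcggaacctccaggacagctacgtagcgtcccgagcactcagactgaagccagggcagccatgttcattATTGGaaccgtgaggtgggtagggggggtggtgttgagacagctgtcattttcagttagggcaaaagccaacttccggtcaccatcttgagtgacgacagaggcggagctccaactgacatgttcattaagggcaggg

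Among the ATPases of the base, PSMC3, PSMC4 and PSMC5 were called higher and PSMC1, PSMC2 and PSMC6 lower in Huh-7 knockout cells with TMM. PSMC6 had 1.58, 0.67 and 0.90 TPM in knockout, against 11.3, 14.3 and 14.5 TPM in wild-type libraries. PSMC4 had 219, 218.5 and 236 TPM in knockout, against 262.5, 252 and 254 TPM in wild-type libraries. The PSMC6 groups did not overlap, and its log2 fold change was -1.58 ± 0.18 (SE, edgeR adjusted p = 3.08e-09) with TMM and below 0 with a call under all 6 scalings. PSMC4 depended on the scaling: its TPM were lower in every knockout than in every wild-type library, at -0.19 on log2(TPM + 1) (limma adjusted p = 0.00178), whereas with TMM it was higher, at 1.36 ± 0.10 (SE, edgeR adjusted p = 9.75e-14). PSMC1, PSMC2, PSMC3 and PSMC5 had log2 fold changes of -0.79, -1.06, 0.94 and 0.64 with TMM, and each changed sign under at least 1 other scaling. PSMC1 had counts that were not whole in all 12 libraries and overlaps an exon of NRDE2 on the opposite strand, so its value is uncertain.

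PSMD14, the deubiquitinase of the lid, had 3.51, 2.5 and 2.66 TPM in Huh-7 knockout libraries, against 22.4, 26.6 and 22.2 TPM in Huh-7 wild-type libraries. The groups did not overlap, and its log2 fold change was -1.38 ± 0.12 (SE, edgeR adjusted p = 4.88e-12). The lid subunits PSMD6 and PSMD7 were lower under all 6 scalings too, at -1.15 and -1.09 with TMM. PSMD4, a ubiquitin receptor, was higher at 0.89 ± 0.10 (SE, edgeR adjusted p = 1.3e-09) with TMM, but lower at -0.22 with library totals and -0.76 on log2(TPM + 1). The base chaperones, which hold ATPases during assembly, went different ways: PSMD9 rose at 1.71 ± 0.10, PSMD5 fell at -1.31 ± 0.13 and PSMD10 fell at -0.86 ± 0.21 (SE). PSMD9 had 38.1, 37.4 and 36.6 TPM in knockout, against 53.6, 49.1 and 46.3 TPM in wild-type libraries, so on log2(TPM + 1) it was lower, at -0.40. PSMD5 had 0.99, 0.80 and 0.70 TPM in knockout, against 5.21, 11.1 and 10.9 TPM in wild-type libraries, and was at 0.12 with GC and length offsets. Of the 48 genes, 23 share exon bases with other genes, which leaves their values uncertain where the counting could split reads. They are PSMA1, PSMA2, PSMA6, PSMB8, PSMB9, PSMB10, PSMC1, PSMC5, PSMD1, PSMD6, PSMD7, PSMD9, PSMD11, PSMD13, PSMD14, PSME1, PSME2, PSME3, PSME4, PSMF1, PSMG2, PSMG3 and PSMG4.

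Among the activators, PSME4, which caps the core in the nucleus, had the second lowest value of all members. It had 0.57, 0.44 and 0.64 TPM in Huh-7 knockout libraries, against 5.23, 5.92 and 5.56 TPM in Huh-7 wild-type libraries, with no overlap. Its log2 fold change was -2.70 ± 0.16 (SE, edgeR adjusted p = 2.35e-16) with TMM and -0.55 ± 0.13 (SE, edgeR adjusted p = 0.000809) with GC and length offsets. PSME1 and PSME2, the interferon-responsive activator pair, were higher with TMM, at 1.20 ± 0.09 and 1.40 ± 0.11 (SE), but lower on log2(TPM + 1), at -0.43 and -0.22. PSME3, a nuclear activator, was lower with TMM at -0.42 ± 0.09 (SE, edgeR adjusted p = 0.000145) and higher with GC and length offsets at 0.40. PSMF1 was higher with TMM at 0.58 ± 0.10 (SE, edgeR adjusted p = 2.38e-06) and lower at -0.53 with library totals. Of the core chaperones, PSMG3 was higher under all 6 scalings, with 132.5, 131.8 and 127 TPM in knockout, against 105.0, 109.8 and 100.1 TPM in wild-type libraries. PSMG2 and PSMG4 were higher with TMM, at 0.89 ± 0.12 and 0.98 ± 0.14 (SE), and below 0 with library totals, at -0.22 and -0.13. PSMG1, the partner of PSMG2, had 13.8, 11.5 and 10.7 CPM (TMM-scaled counts relative to library size) in knockout and 12.4, 12.7 and 10.7 CPM in wild-type libraries, which overlapped. PSMG1 did not pass with TMM (edgeR adjusted p = 0.97), with a log2 fold change of 0.01 ± 0.13 (SE). Its TPM were 6.49, 5.77 and 5.02 in knockout, against 17.75, 19.14 and 15.9 in wild-type libraries, without overlap. It was called lower with library totals (-1.10) and on log2(TPM + 1) (-1.46), and higher with GC and length offsets (0.43) and DESeq2 size factors (0.44).

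In HCC-LM3, 3 members rose and 12 fell in knockout against wild-type cells, of 47 tested. In this comparison 26.8% of all genes were called, 14.0% higher and 12.9% lower. The core had 1 higher and 4 lower members, the cap 0 higher and 8 lower, and the rest 2 higher and 0 lower. The median log2 fold change was -0.02 over the core, -0.17 over the cap, -0.03 over the rest and 0.00 over all genes. PSMA8 counts among the tested, although it was at 0 counts in all 6 HCC-LM3 libraries and passed the filter through Huh-7 alone. Library totals gave 22 members lower, GC and length offsets 6, and log2(TPM + 1) 22. Without wild-type replicate 1, 13 members were higher and 12 lower: the 10 added on the higher side were PSMB6, PSMB7, PSMB8, PSMC3, PSMC4, PSMC5, PSMD2, PSMD3, PSMD8 and PSME2. On the lower side PSMA5 was lost and PSME4 added. Shares of all genes called without this library, with library totals and on log2(TPM + 1) are not reported here. These moves of the members can therefore not be set against those of all genes. PSMB10 was called higher, and PSMD1, PSMD5, PSMD7 and PSMD12 lower, under all 6 scalings, where 3.5% of all genes were called higher and 4.38% lower under all 6.

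PSMB10, the inducible subunit with trypsin-like activity, had 33.1, 36.4 and 37.3 CPM in HCC-LM3 knockout libraries, against 26.2, 21.3 and 22.0 CPM in HCC-LM3 wild-type libraries. The groups did not overlap, and its log2 fold change was 0.62 ± 0.10 (SE, edgeR adjusted p = 2.15e-05). No other PSMB gene was called with all libraries: PSMB5, PSMB6 and PSMB7 were at 0.01, 0.14 and 0.09, and PSMB8 and PSMB9 at 0.19 and 0.03. Without wild-type replicate 1, PSMB6 (0.26), PSMB7 (0.26) and PSMB8 (0.34) were called higher, while PSMB5 (0.13) and PSMB9 (0.22) were not. PSMA2, PSMA3, PSMA4 and PSMA5 fell, at -0.37, -0.51, -0.36 and -0.30. PSMA3 had 22.4, 21.4 and 24.9 CPM in knockout, against 33.3, 30.3 and 33.9 CPM in wild-type libraries, without overlap (log2 fold change -0.51 ± 0.10, SE, edgeR adjusted p = 0.000501). Without wild-type replicate 1, PSMA5 was at -0.20 and no longer passed. With GC and length offsets none of these 4 PSMA genes passed.

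PSMD12 had the lowest value of all members in HCC-LM3, with 14.2, 15.97 and 15.1 CPM in knockout, against 23.0, 23.6 and 28.2 CPM in wild-type libraries. Its groups did not overlap, and its log2 fold change was -0.73 ± 0.13 (SE, edgeR adjusted p = 7.7e-05). PSMC6 had 11.8, 12.9 and 11.8 CPM in knockout, against 19.1, 17.8 and 21.3 CPM in wild-type libraries (log2 fold change -0.67 ± 0.14, SE, edgeR adjusted p = 0.000714). PSMD5 had 36.1, 34.8 and 34.7 CPM in knockout, against 48.8, 56.0 and 52.2 CPM in wild-type libraries (log2 fold change -0.57 ± 0.09, SE, edgeR adjusted p = 4.07e-05). PSMD1 and PSMD14 fell as well, at -0.54 ± 0.11 and -0.50 ± 0.10 (SE), and PSMC2, PSMD6 and PSMD7 at -0.33, -0.40 and -0.38. The ratio of PSMD1 to PSMD2 TPM was 0.0489 ± 0.0018 in HCC-LM3 knockout and 0.0726 ± 0.0170 in HCC-LM3 wild-type libraries (SD, n = 3 each). The groups did not overlap, although wild-type replicate 1, at 0.0529, lay near the knockout values of 0.0474 to 0.0509. PSMC1, PSMC3, PSMC4 and PSMC5 were at -0.15, 0.15, 0.25 and 0.16, and PSMD4, PSMD9 and PSMD10 at -0.0039, -0.0037 and -0.27, none of which passed. The highest cap values, PSMC4, PSMD3 and PSMC5, were 0.25, 0.23 and 0.16. Without wild-type replicate 1, PSMC3 (0.30), PSMC4 (0.40), PSMC5 (0.24), PSMD2 (0.26), PSMD3 (0.34) and PSMD8 (0.29) were called higher.

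PSMF1 rose in HCC-LM3 knockout cells, with 69.9, 69.0 and 68.95 CPM in knockout, against 59.9, 46.8 and 46.9 CPM in wild-type libraries (log2 fold change 0.44 ± 0.10, SE, edgeR adjusted p = 0.00125). PSME1 rose too, with 65.9, 65.4 and 68.8 CPM in knockout, against 57.4, 51.2 and 48.5 CPM in wild-type libraries (log2 fold change 0.35 ± 0.09, SE, edgeR adjusted p = 0.00586). Neither overlapped between genotypes, but PSME1 no longer passed with library totals (0.20) or on log2(TPM + 1) (0.16), and PSMF1 did not pass on log2(TPM + 1) (0.35) or with GC and length offsets (0.41). PSME2, PSME3 and PSME4 were at 0.11, -0.05 and -0.26, and PSMG1, PSMG2, PSMG3 and PSMG4 at -0.03, -0.20, -0.05 and 0.07, none of which passed. Without wild-type replicate 1, PSME2 (0.27) was called higher and PSME4 (-0.40) lower.

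The knockout effect itself differed between the lines for most members. The effect in HCC-LM3 less that in Huh-7 was called higher for 13 members and lower for 27, where 61.6% of all genes were called, 37.7% higher and 23.9% lower. The core had 0 higher and 14 lower members, the cap 11 higher and 8 lower, and the rest 2 higher and 5 lower. Under all 6 scalings, PSMB3, PSMB4, PSMB5, PSMB6, PSMB7, PSMD8 and PSMG3 were called lower in this difference, and PSMD1, PSMD14 and PSME4 higher, where 4.18% of all genes were called lower and 14.9% higher under all 6. For PSMB3 the difference was -1.98 ± 0.15 (SE, edgeR adjusted p = 4.03e-13), and for PSME4 it was 2.44 ± 0.21 (SE, edgeR adjusted p = 3.08e-12). With TMM, 3 members were called higher in both lines (PSMB10, PSME1 and PSMF1) and 10 lower in both (PSMA3, PSMA4, PSMC2, PSMC6, PSMD1, PSMD5, PSMD6, PSMD7, PSMD12 and PSMD14). PSMA5 was called lower in HCC-LM3 and higher in Huh-7. On log2(TPM + 1) the split was turned round, with 30 members called higher in the difference and 7 lower. The shares of all genes on that scale are not reported here. With GC and length offsets 10 were higher and 24 lower, where 23.4% and 25.3% of all genes were called.

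The size and sign of the change went with the base composition of the transcript. The 9 cap genes called higher in Huh-7 knockout cells had 50.9% to 58.6% GC, and the 11 called lower 34.8% to 48.7% GC, ranges that did not overlap. In the core the ranges overlapped, at 37.2% to 63.3% GC for the 13 called higher and 39.9% to 46.0% GC for the 3 called lower. They overlapped in the rest as well, at 41.0% to 58.5% GC for the 6 called higher and 41.5% to 47.3% GC for the 2 called lower. The higher cap genes had a median length of 1591 bases and the lower ones 3054 bases. Over the 46 tested members other than PSMA8, Spearman's rho between GC content and the log2 fold change was 0.81 in HCC-LM3 and 0.69 in Huh-7, and over 16480 genes it was 0.53 in HCC-LM3 and 0.49 in Huh-7. With length, rho over the 46 members was -0.23 in HCC-LM3 and -0.58 in Huh-7. These members share libraries, so the correlations are descriptions. After offsets for GC content and length the rho with GC content over the 46 members was 0.13 in HCC-LM3 and 0.21 in Huh-7. Over all 16480 genes it was then 0.03 in HCC-LM3 and 0.07 in Huh-7. The offsets are fitted on GC content and length, so a smaller rho follows from the fit itself. The Huh-7 core median was then 0.54, the cap median 0.09 and the gap between them 0.46, with 26 members higher and 10 lower, where 30.7% and 28.5% of all genes were called. In HCC-LM3 the offsets left 2 members higher (PSMB10 and PSME1) and 6 lower (PSMB3, PSMD1, PSMD5, PSMD7, PSMD12 and PSMG3), where 8.26% and 9.15% of all genes were called. The part of GC content and length in the changes was not tested beyond these fits.

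**Figure D3:**
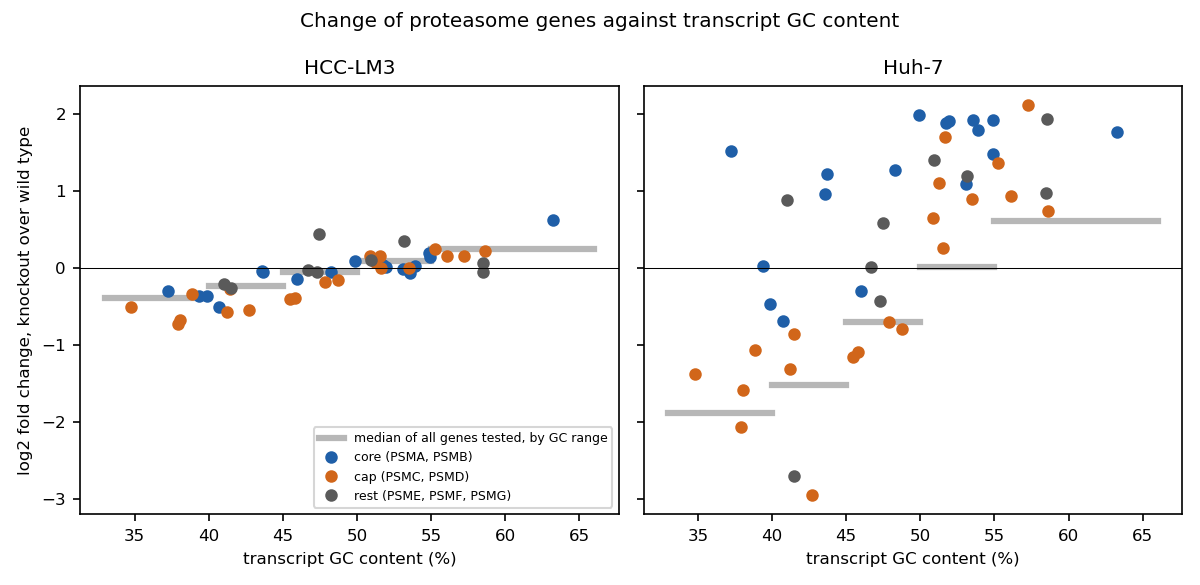
Log2 fold change of 46 proteasome genes in knockout over wild-type cells (edgeR, TMM) against GC content of the transcript, in HCC-LM3 (left) and Huh-7 (right). Grey bars are medians of all genes tested by GC range, running from -1.88 under 40% GC to 0.61 above 55% GC in Huh-7, and from -0.38 to 0.25 in HCC-LM3.

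In Huh-7 the medians of the members lay above those of all genes of like GC content in that plot. In the range of 50% to 55% GC, the median was 1.44 over 14 members and 0.02 over all 2739 genes. Under 40% GC it was -0.89 over 8 members and -1.88 over all 2053 genes. Among genes under 1000 bases long, the median was 1.58 over 12 members and 1.43 over all 1802 genes. At 1000 to 2000 bases it was 0.765 over 20 members and 0.737 over all 3591 genes. At 2000 to 4000 bases it was -0.207 over 10 members and -0.266 over all 6113 genes. At 4000 to 10000 bases it was -0.791 over 5 members and -1.62 over all 4468 genes. These members include PSMA8, which the plot leaves out. The offsets moved single members far: PSMA5 to 3.15, PSMB2 to 2.53 and PSMF1 to 2.30, with deposited lengths of 3815, 4426 and 8154 bases. They turned PSMG4, with 58.5% GC, to -0.83 ± 0.14 (SE, edgeR adjusted p = 1.76e-05).

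**Figure D4:**
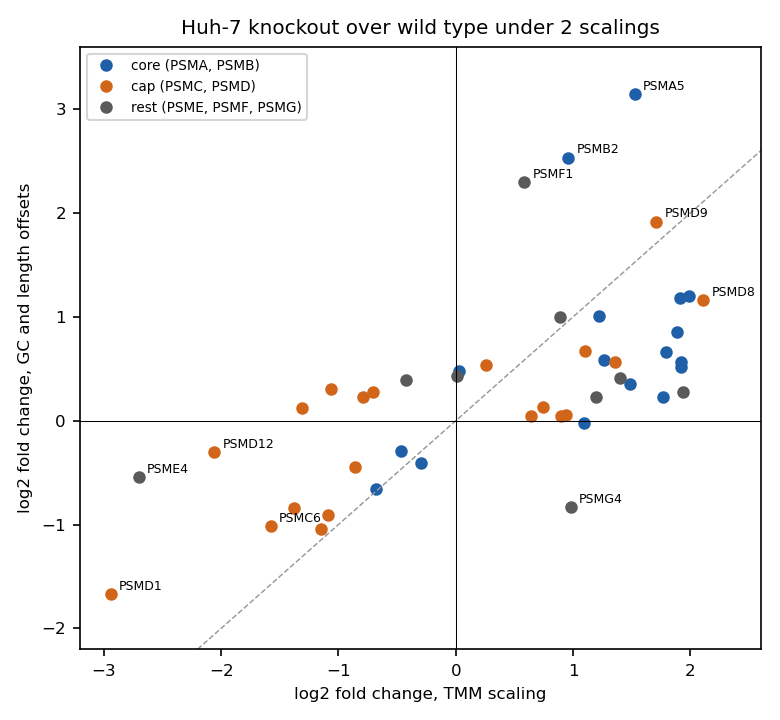
Log2 fold change of 46 proteasome genes in Huh-7 knockout over wild-type cells with TMM scaling (horizontal) and with offsets for GC content and length (vertical); the dashed line marks equal values. PSMD1 stayed lowest, at -1.67, while PSMC2, PSMD5, PSMD11, PSMC1 and PSME3 moved above 0 and PSMG4 and PSMA7 below 0 with the offsets.

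Between the wild-type lines, the inducible catalytic subunits PSMB8 and PSMB9 were far higher in HCC-LM3 than in Huh-7. Of 47 members tested, 22 were higher and 21 lower in wild-type HCC-LM3 than in wild-type Huh-7, where 82.8% of all genes were called, 41.8% higher and 41.0% lower. Under all 6 scalings 22 members were higher and 13 lower, where 36.7% of all genes were higher and 26.6% lower. With GC and length offsets 25 were higher and 20 lower, where 42.8% and 39.9% of all genes were called. PSMB8, the inducible subunit with chymotrypsin-like activity, had 125, 115 and 114 TPM in wild-type HCC-LM3, against 1.41, 1.93 and 1.90 TPM in wild-type Huh-7. The lines did not overlap, and the log2 fold change was 5.43 ± 0.16 (SE, edgeR adjusted p = 3.3e-25). PSMB9, the inducible counterpart of PSMB6, had 44.4, 39.2 and 34.5 TPM in wild-type HCC-LM3, against 0.98, 0.95 and 1.01 TPM in wild-type Huh-7 (log2 fold change 4.60 ± 0.20, SE, edgeR adjusted p = 2.06e-20). PSMB8 and PSMB9 lie beside each other on chromosome 6, at positions 32840717 to 32844703 and 32844136 to 32859585 (GENCODE 29, GRCh38), on opposite strands. Their exons overlap each other and PSMB8-AS1, so reads of that stretch cannot be assigned without the strand setting. PSMB10, on chromosome 16, had 52.1, 54.3 and 55.3 TPM in wild-type HCC-LM3, against 44.7, 43.6 and 46.5 TPM in wild-type Huh-7. PSMB10 was lower with TMM, at -0.35 ± 0.10 (SE, edgeR adjusted p = 0.0017), and higher on log2(TPM + 1), at 0.26.

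The constitutive subunits PSMB5 and PSMB6 were lower in wild-type HCC-LM3 than in wild-type Huh-7, and the sign for PSMB7 depended on the scaling. PSMB5 had 332, 307 and 324 TPM in wild-type HCC-LM3, against 875, 881 and 850 TPM in wild-type Huh-7 (log2 fold change -2.22 ± 0.11, SE, edgeR adjusted p = 1.58e-19). PSMB6 was lower as well, at -1.79 ± 0.10 (SE, edgeR adjusted p = 4.38e-17), and both held under all 6 scalings. PSMB7 had 670, 571 and 589 TPM in wild-type HCC-LM3, against 493, 472 and 454 TPM in wild-type Huh-7, without overlap. It was called lower with TMM (-0.36) and with GC and length offsets (-0.29), but higher on log2(TPM + 1) (0.36), and did not pass with library totals (0.0467). The ratio of PSMB8 to PSMB5 TPM was 0.423 ± 0.013 in HCC-LM3 knockout and 0.368 ± 0.013 in HCC-LM3 wild-type libraries, and 0.00158 ± 0.00042 in Huh-7 knockout and 0.00201 ± 0.00035 in Huh-7 wild-type libraries (SD, n = 3 each). The HCC-LM3 genotypes did not overlap in this ratio (0.412 to 0.437 in knockout, 0.353 to 0.377 in wild type), and the Huh-7 genotypes did. PSMB9 over PSMB6 was 0.122 ± 0.008 in HCC-LM3 knockout and 0.131 ± 0.013 in HCC-LM3 wild-type libraries, and 0.00147 ± 0.00033 in Huh-7 knockout and 0.00158 ± 0.00012 in Huh-7 wild-type libraries (SD, n = 3 each). PSMB10 over PSMB7 was 0.122 ± 0.005 in HCC-LM3 knockout and 0.0890 ± 0.0097 in HCC-LM3 wild-type libraries, and 0.0937 ± 0.0074 in Huh-7 knockout and 0.0951 ± 0.0063 in Huh-7 wild-type libraries (SD, n = 3 each). The PSMB10 ratio did not overlap between HCC-LM3 genotypes and overlapped between Huh-7 genotypes. With 3 libraries against 3, the exact permutation test cannot go below p = 0.1, so these ratios were not tested.

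**Figure D5:**
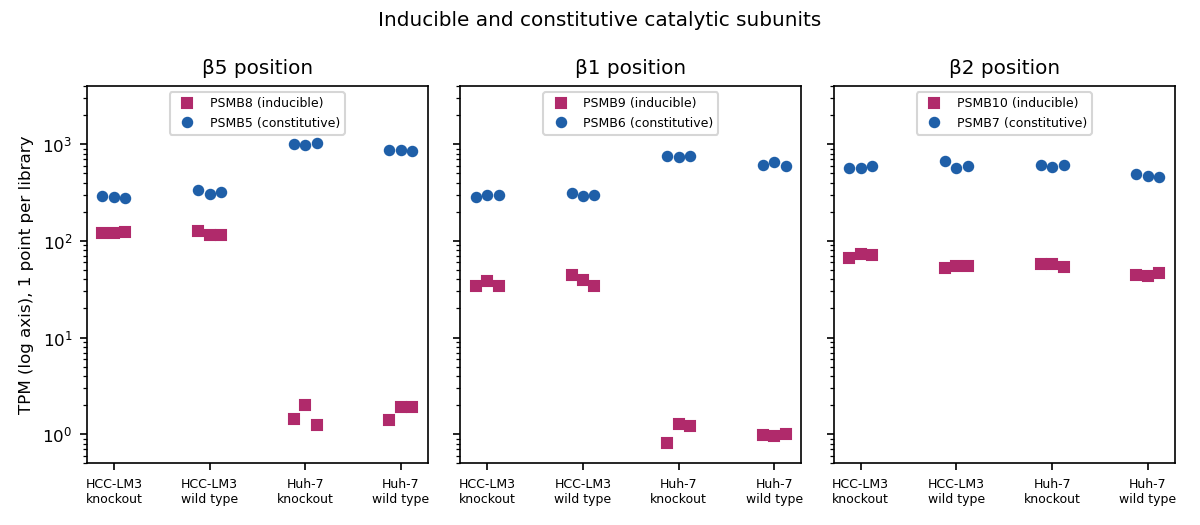
TPM (log axis) of each inducible catalytic subunit (squares) and its constitutive counterpart (circles), with 1 point per library and 3 libraries per group. PSMB8 and PSMB9 sit at 33.9 to 125 TPM in HCC-LM3 and at 0.82 to 2.01 TPM in Huh-7, whereas PSMB10 lies between 43.6 and 72.8 TPM in all 4 groups.

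The promoters of an exchanged pair and of PSMB9 are shown because these genes carry the difference between the lines. PSMB5 is at chr14:23035171-23035470 on the minus strand, PSMB8 at chr6:32843998-32844297 on the minus strand and PSMB9 at chr6:32853942-32854241 on the plus strand (RefSeq, GRCh38.p14). Capitals mark the CCAAT box in PSMB5, an interferon-stimulated response element (GAAA, NN, GAAA) and an interferon-γ activated site (TTCNNNGAA) in PSMB8, and a CCAAT box and an antioxidant response element in PSMB9. Both strands were searched, so a match to the other strand appears as its reverse complement, and PSMB5 and PSMB8 each have another start with its own window.
PSMB5: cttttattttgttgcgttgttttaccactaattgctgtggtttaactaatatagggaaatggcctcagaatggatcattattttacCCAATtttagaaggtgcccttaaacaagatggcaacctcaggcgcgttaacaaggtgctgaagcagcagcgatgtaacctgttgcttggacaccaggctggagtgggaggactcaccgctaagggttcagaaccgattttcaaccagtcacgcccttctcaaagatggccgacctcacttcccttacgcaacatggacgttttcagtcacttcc
PSMB8: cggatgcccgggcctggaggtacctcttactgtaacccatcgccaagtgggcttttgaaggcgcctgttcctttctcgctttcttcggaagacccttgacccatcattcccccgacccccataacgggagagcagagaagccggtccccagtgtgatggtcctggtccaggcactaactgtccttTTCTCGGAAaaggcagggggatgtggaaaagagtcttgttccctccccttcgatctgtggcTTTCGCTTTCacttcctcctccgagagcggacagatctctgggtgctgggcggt
PSMB9: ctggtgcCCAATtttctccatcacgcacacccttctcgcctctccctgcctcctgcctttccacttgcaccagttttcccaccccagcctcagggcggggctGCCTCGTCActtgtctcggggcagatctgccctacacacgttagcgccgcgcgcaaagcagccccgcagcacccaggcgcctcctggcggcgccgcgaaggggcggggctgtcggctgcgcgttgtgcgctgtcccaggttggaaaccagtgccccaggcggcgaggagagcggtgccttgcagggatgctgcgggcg

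Promoter windows were found in the RefSeq table for 42 of the 48 genes, and PSMA7, PSMB1, PSMB6, PSMB7, PSMD4 and PSMG3 are named only. The antioxidant response element was present for 15 of 42 genes (35.7%), against 16.1% of 27305 genes with a window. The CCAAT box was present for 20 of 42 genes (47.6%), against 39.7% of all. The 2 interferon motifs were added after the data had been seen: the response element was present for 7 of 42 genes (16.7%), against 4.38% of all, and the activated site for 8 of 42 (19.0%), against 9.38%. Of the 7, PSMB8, PSMB10, PSME1 and PSME2 are known to respond to interferon. No cap gene among 19 held the response element. In wild-type HCC-LM3 against wild-type Huh-7, PSME1 and PSME2 were lower, at -1.34 ± 0.10 and -1.30 ± 0.11 (SE), unlike PSMB8. A match is a description of letters, not a site.

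The remaining differences between the wild-type lines split by family. Of 8 PSMA genes, 7 were higher in wild-type HCC-LM3 under all 6 scalings, with PSMA5 at 1.504 ± 0.11 (SE, edgeR adjusted p = 3.43e-14). PSMA8 was the exception: it was at 0 counts in HCC-LM3, at least 14.02-fold lower in wild-type HCC-LM3 than in wild-type Huh-7 with 3 counts a library as the limit. PSMA8 passed the filter through Huh-7 alone, so it could be called lower here but not higher. It is counted among the members called lower between the wild-type lines. Of 10 PSMB genes tested, 2 were higher and 8 lower, with a median of -0.63. In the cap, the chaperones PSMD10, PSMD5 and PSMD9 were higher, at 2.46, 1.61 and 0.82, and PSMD6 at 1.87. PSMC4, PSMD8 and PSMD3 were the lowest, at -1.44, -1.27 and -1.16. PSMC1, PSMC2, PSMC3 and PSMC6 were higher, at 1.20, 1.01, 0.39 and 0.40, and PSMC5 did not pass, at -0.0022. PSMD14 was higher at 0.80, and PSMD4 was lower at -0.32 with TMM but at 0.09 with library totals. PSMF1 was lower at -1.86 ± 0.10 (SE, edgeR adjusted p = 5.66e-18) and PSMG1 higher at 1.79 ± 0.12 (SE, edgeR adjusted p = 6.64e-16). PSMG2 was higher at 0.61 and PSMG3 lower at -0.40, the last with the sign turned under 4 other scalings. PSME3, PSMG4 and PSMD11 did not pass, at 0.19, 0.12 and 0.16, and PSME4 was lower at -0.30 with TMM but at 0.13 with library totals and 0.58 on log2(TPM + 1). Without HCC-LM3 wild-type replicate 1, PSME3 (0.15) and PSMD11 (0.18) were called higher, and PSME4 (-0.12) no longer passed.

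A further list held 35 proteasome and ubiquitin genes outside the 48, and all were tested. Their log2 fold changes are given with TMM scaling alone, and their signs under the other scalings are not reported here. In HCC-LM3 knockout cells 2 were higher and 7 lower, and in Huh-7 knockout cells 11 were higher and 21 lower, with medians of -0.04 and -0.77. Over all genes 14.0% were higher and 12.9% lower in HCC-LM3, with a median of 0.00, and 31.7% were higher and 43.2% lower in Huh-7, with a median of -0.30. In HCC-LM3, UBA1, the main ubiquitin-activating enzyme, rose at 0.39. UBQLN2, UBA6 and UBQLN1, which are 2 shuttles and a second activating enzyme, fell at -0.78, -0.61 and -0.61, and SEM1, a small lid subunit, fell at -0.32. In Huh-7, UBB, which encodes ubiquitin, rose at 1.73 ± 0.11 (SE), and ZFAND2A, a stress-induced proteasome-binding protein, at 1.89 ± 0.11 (SE). ECPAS, a proteasome adaptor, fell at -3.29 ± 0.17, DDI2, the protease that activates NFE2L1, at -2.75 ± 0.22, and RAD23B at -2.59 ± 0.11 (SE). NFE2L1 itself fell at -1.32 ± 0.10 (SE, edgeR adjusted p = 4.56e-14) and NFE2L2 at -2.17 ± 0.14 (SE, edgeR adjusted p = 1.68e-15) in Huh-7, while in HCC-LM3 NFE2L1 was at 0.21 without passing and NFE2L2 fell at -0.50. ECPAS, DDI2, RAD23B and NFE2L1 are 7391, 10667, 4114 and 4839 bases long. Over all genes of 4000 to 10000 bases the Huh-7 median was -1.62, below the NFE2L1 value. NFE2L2 is 2446 bases long, and the median at 2000 to 4000 bases was -0.27. By base composition, NFE2L2 has 39.8% GC, and the Huh-7 median under 40% GC was -1.88. NFE2L1 has 55.2% GC, and the Huh-7 median above 55% GC was 0.61. ZFAND2A is 852 bases long, and the median under 1000 bases was 1.43. The part of length and GC content was not tested. ECPAS, RAD23B and DDI2 were the highest in the difference between the effects, at 3.12, 2.40 and 2.35, and ZFAND2A and UBB were among the lowest, at -1.83 and -1.75. The list had 21 higher and 11 lower members in that difference, where 37.7% of all genes were higher and 23.9% lower. Between the wild-type lines 20 of the list were higher and 13 lower in HCC-LM3, where 41.8% of all genes were higher and 41.0% lower. The list was led by UBQLN2 at 2.63, FAF1 at 1.57 and UBQLN1 at 1.54, with ADRM1 and UFD1 lowest at -1.95 and -1.62.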

How the data were processed

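RNA was sequenced in cultured HCC-LM3 and Huh-7 cells. The counting tool, its strand setting and the human build are, for these files, unstated: not given in the sources used here. Groups and replicate numbers follow the labels. The table the authors deposited holds, per the file headers, expected counts, TPM values and gene lengths. In each library 7.49% to 13.3% of the deposited expected counts were not whole, and they carry no normalization. The TPM values the authors deposited are scaled by length, with library sums of 977632 to 998831. Counts and TPM of a gene did not keep a fixed relation between libraries. PSMD5 had 1541 counts and 22.9 TPM in wild-type HCC-LM3 replicate 1, and 1709 counts and 68.6 TPM in wild-type HCC-LM3 replicate 3. The submitters' processing notes list Bowtie 0.12.2 with mm8 and mm9, which are mouse builds, although the identifiers are human. Genes that overlap or have near-identical copies are uncertain: 23 of the 48 share exon bases with another gene, 19 of them on the opposite strand, and 27 have counts that are not whole.

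The rounded counts of all 12 libraries went into 1 edgeR 4.0.16 fit (R 4.3.3) after filterByExpr and TMM scaling, a robust quasi-likelihood model of the 4 group means with 8 residual degrees of freedom, two-sided, with Benjamini-Hochberg adjusted p-values over 16537 genes and calls under 0.05. The script was tested on simulated data. The log2 fold changes of the fit, and the log2(TPM + 1) values computed from the TPM the authors deposited, were also compared under other scalings: DESeq2 1.42.0 size factors, library totals, length offsets, GC and length offsets, and limma 3.58.1 on log2(TPM + 1), the last chosen after seeing the data. Coordinates, lengths of transcripts and GC content came from GENCODE 29 (GRCh38), which held 99.5% of the gene identifiers, and promoters from RefSeq (GRCh38.p14). Libraries with the same number did not pair: their deviations from the group means correlated at -0.106 to 0.083, so no block was used.

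The members and lists were chosen with earlier results of these data known. The text names the catalytic subunits and their inducible counterparts, PSMA8, PSMB11, all PSMC, PSME, PSMF and PSMG genes, PSMD4, PSMD14, the base chaperones, the 3 highest and 3 lowest core and cap values of each comparison, and the 3 highest and 3 lowest called values of the list of other proteasome genes. A few genes that the rule picks from that list are not reported here. Other members were named for the calls they share across scalings or lines, after their values were seen.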

Additional observations from a re-analysis of the deposited data

Results flagged for a closer look

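The knockout effect differed between the lines, by edgeR's test of the difference itself, for 40 members, where 61.6% of all 16537 genes were called in this difference. Each value is the log2 effect in HCC-LM3 minus the log2 effect in Huh-7, with TMM scaling. In the core the difference was below 0 for PSMB3 (-1.98), PSMB5 (-1.90), PSMB7 (-1.90), PSMB4 (-1.85), PSMA5 (-1.82), PSMB6 (-1.78), PSMB9 (-1.77), PSMB1 (-1.32), PSMB8 (-1.29), PSMA6 (-1.27), PSMB10 (-1.14), PSMA7 (-1.11), PSMB2 (-0.996) and PSMA2 (-0.39). In the cap it was below 0 for PSMD8 (-1.96), PSMD9 (-1.71), PSMC4 (-1.11), PSMD13 (-1.02), PSMD4 (-0.90), PSMC3 (-0.78), PSMD3 (-0.52) and PSMC5 (-0.49). Among the activators and chaperones it was below 0 for PSMG3 (-1.99), PSME2 (-1.29), PSMG2 (-1.09), PSMG4 (-0.91) and PSME1 (-0.85). The difference was above 0 in the cap for PSMD11 (0.52), PSMD10 (0.58), PSMC1 (0.64), PSMD7 (0.71), PSMC2 (0.73), PSMD5 (0.74), PSMD6 (0.75), PSMD14 (0.88), PSMC6 (0.91), PSMD12 (1.33) and PSMD1 (2.40), and among the activators for PSME3 (0.38) and PSME4 (2.44). Of these, PSMB3, PSMB4, PSMB5, PSMB6, PSMB7, PSMD8, PSMG3, PSMD1, PSMD14 and PSME4 kept their sign and their call under all 6 scalings. Without HCC-LM3 wild-type replicate 1, PSMD10 (0.51) no longer passed.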

How the results depend on the processing

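Counts of members called higher and lower moved with the scaling, the test and, in HCC-LM3, with 1 library. In HCC-LM3 knockout against wild type, 3 higher became 5 with the DESeq2 Wald test, 5 with limma-voom and 1 on log2(TPM + 1), and 12 lower became 22 with library totals, 6 with GC and length offsets and 22 on log2(TPM + 1). In Huh-7 knockout against wild type, 28 higher became 13 with library totals and 8 on log2(TPM + 1), and 16 lower became 26 with library totals, 10 with GC and length offsets and 36 on log2(TPM + 1). In the difference between the effects, 13 higher became 4 with DESeq2 size factors, 4 with the DESeq2 Wald test, 22 with library totals and 30 on log2(TPM + 1), and 27 lower became 13 with library totals and 7 on log2(TPM + 1). Between the wild-type lines, 21 lower became 13 on log2(TPM + 1). Leaving out each library in turn gave 2 to 13 higher and 11 to 12 lower in HCC-LM3, 27 to 28 higher and 15 to 16 lower in Huh-7, 11 to 13 higher and 27 to 27 lower in the difference between the effects, and 21 to 24 higher and 17 to 21 lower between the wild-type lines. The 13 higher in HCC-LM3, against 3 with all libraries, came without wild-type replicate 1 and was the widest move of that count. The replicate block left 3 higher and 12 lower in HCC-LM3, and 28 higher and 16 lower in Huh-7, the counts found without it. Shares of all genes called are given above for TMM scaling, for GC and length offsets and for all 6 scalings together. For the other settings they are not reported here, so it cannot be told whether members moved more than all genes. The cause of these shifts was not tested.

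The log2 values of single members below turned sign under the setting named. For knockout against wild type in HCC-LM3, GC and length offsets took PSMA5 to 0.0452 and PSMC2 to 0.0067. The values on log2(TPM + 1) took PSMB4 to -0.14 and PSMB5 to -0.17. For knockout against wild type in Huh-7, DESeq2 size factors took PSMA1 to 0.14 and PSME3 to 0.0148. The DESeq2 Wald test took PSMA1 to 0.14 and PSME3 to 0.0148. Library totals took PSMA2 to -1.08, PSMA7 to -0.0155, PSMB2 to -0.15, PSMC3 to -0.17, PSMC5 to -0.47, PSMD2 to -0.85, PSMD3 to -0.37, PSMD4 to -0.22, PSMD13 to -0.0041, PSMF1 to -0.53, PSMG1 to -1.10, PSMG2 to -0.22 and PSMG4 to -0.13. Length offsets took PSMA2 to -0.54, PSMC1 to 0.26, PSMC5 to -0.0099, PSMD11 to 0.16, PSME3 to 0.13 and PSMG4 to -0.28. The values on log2(TPM + 1) took PSMA2 to -1.53, PSMA5 to -0.74, PSMA6 to -0.43, PSMA7 to -0.55, PSMB1 to -0.37, PSMB2 to -1.11, PSMB8 to -0.10, PSMC3 to -0.72, PSMC4 to -0.19, PSMC5 to -0.9958, PSMD2 to -1.25, PSMD3 to -0.90, PSMD4 to -0.76, PSMD9 to -0.40, PSMD13 to -0.52, PSME1 to -0.43, PSME2 to -0.22, PSMF1 to -1.17, PSMG1 to -1.46 and PSMG2 to -0.56. GC and length offsets took PSMA7 to -0.0204, PSMC1 to 0.23, PSMC2 to 0.31, PSMD5 to 0.12, PSMD11 to 0.28, PSME3 to 0.40 and PSMG4 to -0.83. For the effect in HCC-LM3 less that in Huh-7, library totals took PSMA2 to 0.57, PSMC3 to 0.18, PSMC5 to 0.47, PSMD2 to 0.86, PSMD3 to 0.45, PSMD4 to 0.0655, PSME1 to 0.11, PSMF1 to 0.82, PSMG1 to 0.92 and PSMG4 to 0.0485. Length offsets took PSMA2 to 0.14, PSMC1 to -0.37, PSMC5 to 0.13, PSMD11 to -0.32, PSME3 to -0.18 and PSMG4 to 0.27. The values on log2(TPM + 1) took PSMA2 to 0.99, PSMA5 to 0.25, PSMA6 to 0.20, PSMA7 to 0.35, PSMB1 to 0.14, PSMB2 to 0.88, PSMB8 to 0.14, PSMB10 to 0.0660, PSMC3 to 0.66, PSMC4 to 0.26, PSMC5 to 0.97, PSMD2 to 1.22, PSMD3 to 0.96, PSMD4 to 0.58, PSMD9 to 0.20, PSMD13 to 0.43, PSME1 to 0.60, PSME2 to 0.17, PSMF1 to 1.52, PSMG1 to 1.24 and PSMG2 to 0.18. GC and length offsets took PSMB10 to 0.11, PSMC1 to -0.38, PSMC2 to -0.30, PSMC5 to 0.0947, PSMD5 to -0.40, PSMD11 to -0.42, PSMD12 to -0.0693, PSME1 to 0.0379, PSME3 to -0.37 and PSMG4 to 0.64. DESeq2 size factors took PSME3 to -0.0373. The DESeq2 Wald test took PSME3 to -0.0372. For wild-type HCC-LM3 against wild-type Huh-7, the values on log2(TPM + 1) took PSMB1 to 0.27, PSMB7 to 0.36, PSMB10 to 0.26, PSMC5 to 0.72, PSMD4 to 0.40, PSME4 to 0.58 and PSMG3 to 0.28. Library totals took PSMB7 to 0.0467, PSMB10 to 0.0680, PSMC5 to 0.41, PSMD4 to 0.0902, PSME4 to 0.13 and PSMG3 to 0.0122. Length offsets took PSMB7 to 0.0678, PSMB10 to 0.0923, PSMC5 to 0.33, PSMD4 to 0.0098 and PSMG3 to 0.12. GC and length offsets took PSMB10 to 0.52, PSMD4 to 0.0697, PSMD11 to -0.45, PSME3 to -0.37 and PSMG3 to 0.53. Depth limits PSMA8 and PSMB11, and the low TPM values of PSMD12, PSMD10 and PSMC6 in Huh-7 knockout libraries. It also limits PSMB8, PSMB9, PSMD6 and PSME4 in those libraries. PSMD6 had 44, 25 and 28 counts there, and PSME4 had 51, 31 and 44 counts.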
